A study of Rattus norvegicus with 65 samples.

Results

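The 9 genes described here, Tyms, Dpyd, Umps, Upp1, Tk1, Dut, Rrm2, Cad and Ctps1, encode enzymes that activate or degrade 5-fluorouracil (5FU) or that make, recycle or consume the pyrimidine nucleotides that the drug disturbs. They were chosen by name for these roles, though with earlier results of these data known, and all 9 were among the 14554 genes measured. RNA was sequenced from heart muscle cells of newborn rats in primary culture, taken to serum-free medium before treatment, to ask how the cells respond to 3 drugs at toxic concentrations. The treatments were 10 mM 5FU, 2.5 mM acetaminophen (Ace) and 1.25 µM doxorubicin (Dox), each for 6 or 24 hours, and the controls received DMSO alone, at 1% to match 5FU (DMSO1) or at 0.25% to match both Ace and Dox (DMSO2). At 6 hours there were 6 libraries each of 5FU, DMSO1 and Ace and 7 each of Dox and DMSO2, and at 24 hours 6 each of 5FU and DMSO1 and 7 each of Ace, Dox and DMSO2, or 65 in all. Hearts of 3 litters went into a common pool of cells from which all wells were seeded, so the tests measure the spread between such cultures and not between animals.

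5FU enters the pyrimidine pathways as uracil does. Uridine phosphorylase (Upp1) and UMP synthase (Umps) lead it towards fluorinated nucleotides, dihydropyrimidine dehydrogenase (Dpyd) starts its breakdown, and one of its products, FdUMP, blocks thymidylate synthase (Tyms), the enzyme that methylates dUMP to dTMP. When Tyms is blocked, dUTP pools can expand, which deoxyuridine triphosphatase (Dut) counters, while thymidine kinase 1 (Tk1) supplies dTMP by salvage, ribonucleotide reductase with its subunit Rrm2 supplies deoxynucleotides, and Cad and CTP synthase 1 (Ctps1) act in the de novo route. Several of these genes, among them Tyms, Tk1, Dut and Rrm2, are textbook examples of genes expressed with S phase under E2F transcription factors.

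Promoter windows from RefSeq on the rat assembly GRCr8, from 250 bases before to 50 after an annotated start, were matched to 7 of the 9 genes (all but Umps and Rrm2), with a pair of windows for Dut. The windows of Tyms, Tk1 and Dut are shown because these genes share the S phase background but took different courses under the drugs, and that of Upp1 because its level differed most between the groups. Each is written 5′ to 3′ along the gene, and capitals mark a match on either strand to the E2F words TTTCCCGC, TTTGGCGC, TTTGCCGC or TTTCGCGC, to CCAAT, to the E-box word CACGTG or to the CHR word TTTGAA.
Tyms (chr9:120776034-120776333, minus strand): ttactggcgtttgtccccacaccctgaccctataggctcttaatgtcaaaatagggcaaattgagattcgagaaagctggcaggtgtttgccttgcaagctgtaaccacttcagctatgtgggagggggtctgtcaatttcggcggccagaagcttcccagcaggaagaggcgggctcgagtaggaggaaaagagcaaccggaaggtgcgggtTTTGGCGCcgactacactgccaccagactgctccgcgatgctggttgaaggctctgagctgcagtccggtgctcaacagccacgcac
Tk1 (chr10:103544728-103545027, minus strand): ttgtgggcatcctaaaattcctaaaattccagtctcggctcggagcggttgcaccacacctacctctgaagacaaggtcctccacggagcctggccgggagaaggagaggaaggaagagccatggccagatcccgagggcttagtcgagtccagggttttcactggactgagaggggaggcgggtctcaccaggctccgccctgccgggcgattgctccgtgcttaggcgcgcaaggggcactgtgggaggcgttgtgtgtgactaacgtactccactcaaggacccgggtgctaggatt
Dut, upstream start (chr3:132952180-132952479, plus strand): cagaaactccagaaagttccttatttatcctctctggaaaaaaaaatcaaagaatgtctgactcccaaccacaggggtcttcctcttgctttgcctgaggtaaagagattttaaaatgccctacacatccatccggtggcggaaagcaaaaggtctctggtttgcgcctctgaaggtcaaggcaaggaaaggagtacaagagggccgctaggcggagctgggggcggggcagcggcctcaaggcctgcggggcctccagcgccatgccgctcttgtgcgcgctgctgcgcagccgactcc
Dut, downstream start (chr3:132952649-132952948, plus strand): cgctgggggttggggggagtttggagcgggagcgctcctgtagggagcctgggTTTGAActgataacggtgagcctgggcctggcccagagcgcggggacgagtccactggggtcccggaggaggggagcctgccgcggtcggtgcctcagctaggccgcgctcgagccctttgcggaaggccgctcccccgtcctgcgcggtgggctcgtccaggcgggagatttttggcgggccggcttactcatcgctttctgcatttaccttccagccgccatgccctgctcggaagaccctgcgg
Upp1 (chr14:88024420-88024719, plus strand): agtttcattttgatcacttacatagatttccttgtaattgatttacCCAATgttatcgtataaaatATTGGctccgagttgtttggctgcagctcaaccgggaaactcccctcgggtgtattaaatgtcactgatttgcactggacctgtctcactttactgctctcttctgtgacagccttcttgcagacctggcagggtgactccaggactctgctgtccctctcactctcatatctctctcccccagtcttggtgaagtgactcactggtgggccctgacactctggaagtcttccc
Tyms was the only one of the 7 genes with one of the listed E2F words in its windows, at -37 from the annotated start (position 0), and 2.14% of 33469 rat promoter windows of this length held such a word. Other forms of the E2F site were not searched, and the downstream Dut window holds the similar letters tttggcgg. The Tk1 window and the upstream Dut window held none of the capitalised words. The downstream Dut window held TTTGAA, which 18.3% of all windows did, and the Upp1 window held CCAAT in both orientations, which occurred at least once in 37.5%. The GC box word GGGCGG, left in lower case, was found once in the Tk1 window and once in the upstream Dut window, and in 33.1% of all windows. No match overlapped another in the windows shown. These matches are descriptions of letters in short windows and were not tested against the expression values.

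Library totals ran from 14332827 to 25738297 estimated counts, and the lowest count of any of the 9 genes in any library was 11, for Dpyd. Values are given as CPM, counts scaled by TMM to a common library size, fold changes come from edgeR's quasi-likelihood fit to all 65 libraries, and a gene was called at a Benjamini-Hochberg FDR below 0.01 over all 14554 genes. CPM values were not divided by transcript length, so levels are compared between groups and not between genes. Some libraries stood apart. Library 1 of DMSO1 at 24 hours had the largest root mean square log2 deviation from its group of all libraries, 0.469 against a median of 0.31. That distance, to the mean of the other libraries of its group, was close to its distances from the 24-hour groups DMSO2 (0.489), Ace (0.499) and 5FU (0.524). Its summed level of 12 p53 target genes was 3870 CPM, where the other 5 libraries of the group ran from 1400 to 1510 and 5FU at 24 hours from 4010 to 4260. Library 1 of 5FU at 6 hours deviated by 0.446 and had the lowest TMM factor (0.859), and library 7 of Dox at 24 hours deviated by 0.429 and had the highest total. Without library 1 of 5FU the same number of the 9 genes was called in each comparison it enters, for example 3 lower for 5FU at 6 hours, against 45.0% of all genes. Of 10 cardiomyocyte marker genes 9 were in the table and none was at 0 in all libraries (Ttn was not in it), and all 8 fibroblast markers were measured too.

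**Figure D1:**
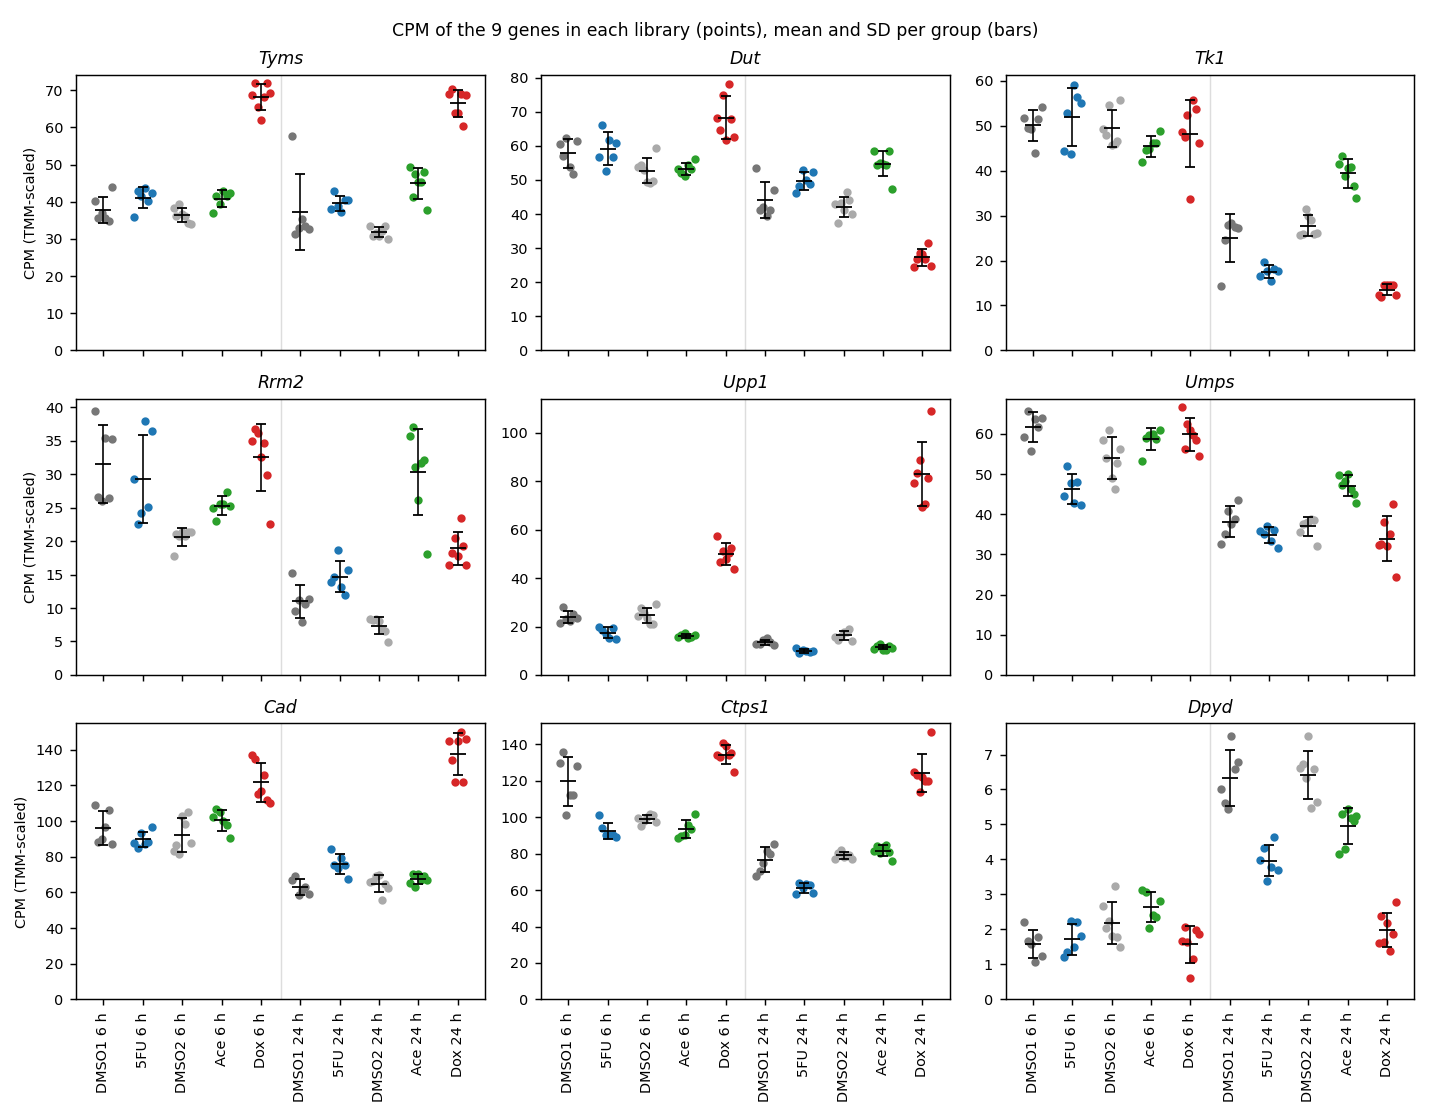
CPM (linear axis from 0, a scale of its own per gene) of the 9 genes in each of the 65 libraries, with 6-hour groups to the left of the grey line and 24-hour groups to the right; points are libraries and black bars the mean and SD. The Dox libraries lie above all others for Tyms and Upp1 at both time points, Tk1 and Dut are lowest in Dox at 24 hours, and 1 DMSO1 library at 24 hours stands apart for Tyms (57.8 CPM) and Tk1 (14.4 CPM).

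Against its own control, 5FU lowered 3 of the 9 genes at 6 hours (Umps, Upp1 and Ctps1) and left 6 uncalled, while 47.9% of all genes were called, 24.5% as lower. At 24 hours, 2 of the 9 were higher in 5FU (Rrm2 and Cad) and 4 lower (Dpyd, Upp1, Tk1 and Ctps1), against 55.8% of all genes called (28.0% higher, 27.8% lower). Without DMSO1 library 1 the counts at 24 hours became 4 higher and 4 lower, against 57.1% of all genes, with Tyms and Dut added to the higher genes. Under Ace, Upp1 was lower at 6 hours and was the only gene of the 9 called there, where 31.7% of all genes were called and 15.2% were lower. At 24 hours Ace raised 5 of the 9 (Tyms, Umps, Tk1, Dut and Rrm2) and lowered Upp1, against 37.2% of all genes (18.2% higher, 19.1% lower). Dox raised 6 of the 9 at 6 hours (Tyms, Upp1, Dut, Rrm2, Cad and Ctps1), against 64.2% of all genes called and 31.5% higher. At 24 hours Dox raised 5 (Tyms, Upp1, Rrm2, Cad and Ctps1) and lowered 3 (Dpyd, Tk1 and Dut), against 81.4% (40.4% higher, 41.0% lower), with the same counts when Dox library 7 was left out. The share called among the 9 was below that of all genes for 5FU and Ace at 6 hours, near it for Dox at both time points and for 5FU at 24 hours, and above it for Ace at 24 hours. With only 9 genes, a single gene moves this share by a large step. For 5FU at 24 hours the count included Rrm2 at an FDR of 0.0098, and with only the compared groups fitted 5 of the 9 were called, against 58.1% of all genes. Ace and Dox were set against the same DMSO2 libraries, so their values are not independent of each other.

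The ranges of the compared groups did not overlap for 3 of the 9 genes for 5FU at 6 hours, where this held for 28.2% of all genes, and for 3 at 24 hours, where it held for 42.9%. Without DMSO1 library 1 it was 6 at 24 hours (Tyms, Tk1 and Rrm2 besides Dpyd, Upp1 and Ctps1), against 52.7%. For Ace the numbers were 2 at 6 hours against 24.5%, and 7 at 24 hours against 26.9%. For Dox they were 6 at 6 hours against 42.6%, and 8 at 24 hours against 68.2%. The median log2 fold change of the 9 genes was -0.10 for 5FU at 6 hours, -0.13 for 5FU at 24 hours, 0.12 and 0.35 for Ace, and 0.40 and 0.65 for Dox, while the median of all genes lay between -0.01 and 0.01 throughout.

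**Figure D2:**
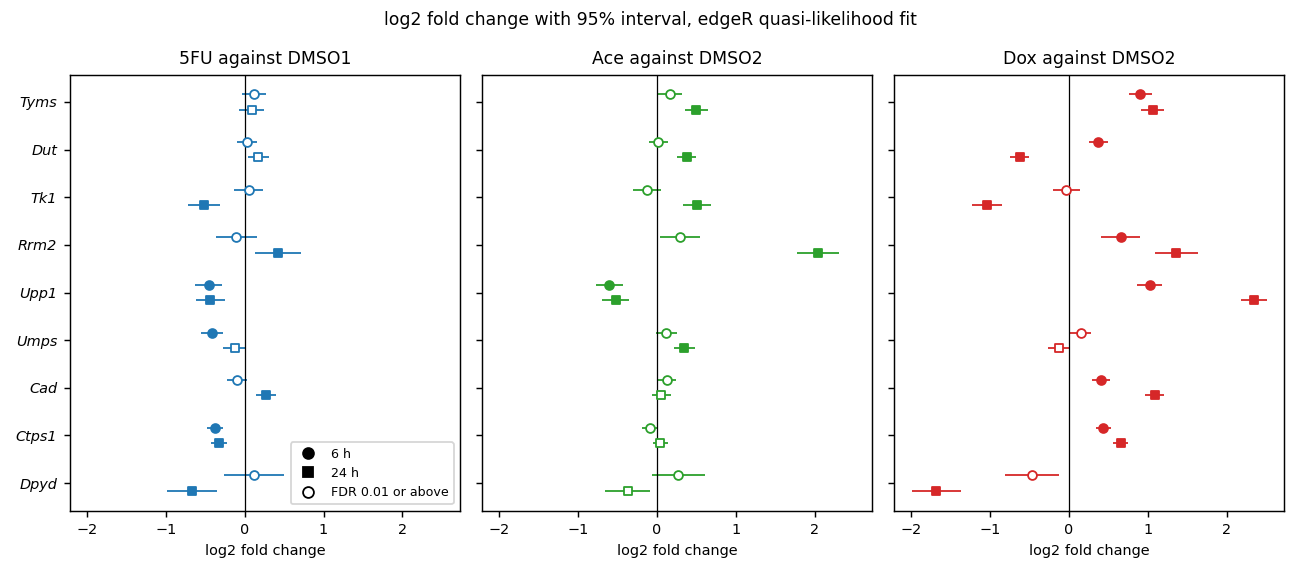
log2 fold change (horizontal axis) of each of the 9 genes against the matching DMSO control at 6 hours (circles) and 24 hours (squares), with 95% intervals; filled symbols have an FDR below 0.01. The largest change is that of Upp1 under Dox at 24 hours (2.35), and the interval of Tyms crosses 0 under 5FU at both time points.

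Tyms, the target of FdUMP, was higher in Dox at both time points and in Ace at 24 hours. In DMSO2 it ran from 34.1 to 39.5 CPM (median 36.2) at 6 hours and from 30.1 to 33.6 (median 31.5) at 24 hours. In Dox it ran from 61.9 to 72.0 (median 68.8) at 6 hours and from 60.4 to 70.3 (median 68.8) at 24 hours, and in Ace at 24 hours from 37.9 to 49.4 (median 45.3). None of these treated groups overlapped DMSO2, and the fold changes were 1.87 and 2.09 for Dox (log2 0.90 and 1.06, SE 0.072 and 0.073, FDR 1.5e-17 and 4.1e-21) and 1.41 for Ace at 24 hours (FDR 4.5e-08). In Ace at 6 hours it ran from 36.9 to 43.0 (median 41.5), overlapped DMSO2 and was not called (log2 0.16, FDR 0.079).

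Under 5FU itself the course of Tyms depended on a single control library. At 6 hours Tyms ran from 35.8 to 43.8 CPM (median 41.9) in 5FU and from 34.8 to 43.9 (median 36.4) in DMSO1, and the log2 fold change was 0.12, with a 95% interval from -0.04 to 0.28. After 24 hours it ran from 37.2 to 42.9 (median 39.6) in 5FU and from 31.3 to 57.8 (median 33.2) in DMSO1. The value of 57.8 belonged to library 1, which lay above every 5FU library, whereas the other 5 controls, from 31.3 to 35.3, lay below every one. With all libraries the log2 fold change was 0.09 with a 95% interval from -0.07 to 0.25 (FDR 0.34), and without library 1 it was 0.26 (1.2-fold, FDR 9e-05). The difference from the Dox effect was called with or without that library, at log2 -0.98 and -0.81 at 24 hours, and the difference from the Ace effect was -0.41 (FDR 0.0011) and -0.24 (FDR 0.0069).

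Dut, which hydrolyses dUTP to dUMP and so keeps uracil out of DNA while feeding Tyms, reversed its course under Dox between the time points. At 6 hours it ran from 61.6 to 78.2 CPM (median 67.8) in Dox and from 49.0 to 59.3 (median 52.8) in DMSO2. After 24 hours the range was from 24.4 to 31.5 (median 26.8) in Dox and from 37.3 to 46.5 (median 43.0) in DMSO2. The groups did not overlap at either time point, with every Dox library above the controls at 6 hours (log2 0.37, FDR 8.5e-08) and every one below at 24 hours (log2 -0.63, FDR 1.6e-14), and the change between them was -1.0 on the log2 scale (FDR 1.7e-16). Ace gave 47.4 to 58.6 (median 54.8) at 24 hours, above all DMSO2 libraries (log2 0.38, FDR 2.4e-07), and 51.0 to 56.1 (median 53.2) at 6 hours (log2 0.02, 95% interval -0.10 to 0.14).

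For 5FU at 6 hours Dut ran from 52.6 to 66.2 CPM (median 58.8) and in DMSO1 from 51.7 to 62.2 (median 58.7), which overlapped almost fully (log2 0.03, 95% interval -0.09 to 0.16). At 24 hours it ran from 46.2 to 52.9 (median 49.3) in 5FU and from 39.3 to 53.5 (median 41.8) in DMSO1, and was not called (log2 0.17, FDR 0.016). The highest control was again library 1, and without it the controls ran from 39.3 to 46.9 and the difference was called (log2 0.24, FDR 0.00084). Across the 10 groups the mean of Dut in Dox at 24 hours (27.3 ± 2.41 CPM, SD) was the only one whose libraries lay apart from those of the next group in the order.

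Tk1, the cytosolic kinase that salvages thymidine, fell with time in culture in the controls and took opposite courses under the drugs at 24 hours. In DMSO2 it ran from 45.7 to 55.8 CPM (median 48.0) at 6 hours and from 25.7 to 31.4 (median 26.2) at 24 hours. At 24 hours Ace gave 34.0 to 43.3 (median 40.6) and Dox 11.9 to 14.6 (median 14.5), so that all Ace libraries lay above the controls and all Dox libraries below. The fold changes at 24 hours were 1.42 for Ace (FDR 2.1e-06) and 0.486 for Dox (FDR 8.9e-16). Neither drug gave a call at 6 hours, with 42.0 to 48.8 (median 45.4) in Ace (log2 -0.12, 95% interval -0.30 to 0.06) and 33.6 to 55.7 (median 48.6) in Dox (log2 -0.03, 95% interval -0.20 to 0.14).

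In 5FU Tk1 ran from 43.7 to 59.0 CPM (median 53.9) at 6 hours, beside 44.0 to 54.2 (median 50.4) in DMSO1, and was not called. After 24 hours it ran from 15.5 to 19.6 (median 17.6) in 5FU and from 14.4 to 28.4 (median 27.3) in DMSO1. The groups overlapped through library 1 of DMSO1, at 14.4, and the other 5 controls, from 24.6 to 28.4, lay above every 5FU library. Tk1 fell by 0.51 on the log2 scale with all libraries (SE 0.1, FDR 9.8e-06) and by 0.63 without library 1 (FDR 3.2e-09). The 5FU effect was below the Ace effect (difference -1.02, FDR 3.6e-09) and above the Dox effect (difference 0.53, FDR 5e-04) at 24 hours.

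Rrm2, the small subunit of ribonucleotide reductase, had the largest response to Ace among the 9 genes. At 24 hours it ran from 18.0 to 37.1 CPM (median 31.7) in Ace, from 16.5 to 23.5 (median 18.2) in Dox and from 4.97 to 8.39 (median 8.13) in DMSO2. Both drug groups lay wholly above the controls, with fold changes of 4.12 for Ace (log2 2.04, SE 0.13, FDR 3.8e-20) and 2.57 for Dox (log2 1.36, SE 0.14, FDR 5.3e-14). At 6 hours it ran from 22.6 to 36.8 (median 34.6) in Dox, from 23.0 to 27.3 (median 25.4) in Ace and from 17.7 to 21.4 (median 21.1) in DMSO2. Both drug groups lay above the controls there too, but only the Dox difference was called (log2 0.66, FDR 3.5e-06), that of Ace being 0.29 with an FDR of 0.059 (FDR 0.00017 when only Ace and DMSO2 at 6 hours were fitted).

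In 5FU Rrm2 ran from 22.5 to 38.0 CPM (median 27.1) at 6 hours, overlapping DMSO1 at 26 to 39.5 (median 30.9), and from 12.0 to 18.7 (median 14.3) at 24 hours, overlapping DMSO1 at 7.91 to 15.2 (median 10.9). The difference at 24 hours was 1.34-fold (log2 0.42, SE 0.15) with an FDR of 0.0098, close to the threshold. The call was lost with library size as the only scaling and with only the compared groups fitted (FDR 0.012 in both). Leaving out single libraries gave log2 values from 0.33 to 0.54, and the call was lost in most of these fits (FDR up to 0.052). The highest DMSO1 library at 24 hours was library 1, and without it the difference was 0.54 (FDR 0.0014).

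The table also holds Rrm2l1, which RefSeq lists as a separate rat gene, and reads that fit transcripts of both may have been split between them, so the value of Rrm2 alone is uncertain. Rrm2 held 24.1% to 32.4% (median 28.8%) of the summed count in each library. The sum ran from 62.5 to 126 CPM (median 110) in Ace, from 55.4 to 79.2 (median 66.0) in Dox and from 20.6 to 30.6 (median 26.2) in DMSO2 at 24 hours, again without overlap between the drugs and the control. Summed counts, a choice made after seeing the data, gave log2 2.03 for Ace, 1.35 for Dox and 0.46 for 5FU (FDR 0.0016) at 24 hours.

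Upp1, which joins uracil or 5FU to ribose, spanned the widest range of the 9 genes across groups, with a ratio of 8.31 between the means of Dox and 5FU at 24 hours. In DMSO2 it ran from 20.9 to 29.4 CPM (median 24.2) at 6 hours and from 14.1 to 18.8 (median 16.1) at 24 hours. In Dox it ran from 43.8 to 57.4 (median 50.3) at 6 hours and from 69.5 to 109 (median 81.3) at 24 hours, and in Ace from 15.2 to 17.3 (median 16.2) and from 10.5 to 12.7 (median 11.1). None of these groups overlapped its control. Dox raised Upp1 2.03-fold at 6 hours (FDR 1.3e-18) and 5.09-fold at 24 hours (FDR 1.3e-36), and the rise between the time points was called (log2 1.33, FDR 5.5e-17). Under Ace it fell by 0.60 on the log2 scale at 6 hours (FDR 2.2e-08) and by 0.52 at 24 hours (FDR 5e-07).

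In 5FU Upp1 ran from 14.7 to 19.9 CPM (median 17.8) at 6 hours and from 9 to 11.3 (median 9.94) at 24 hours. In DMSO1 it ran from 21.5 to 28.1 (median 23.3) and from 12.3 to 15.1 (median 13.2), above every 5FU library at both time points. Upp1 fell by 0.46 and 0.43 on the log2 scale (FDR 8.1e-06 and 6.3e-05). The 5FU and Ace effects on Upp1 differed by 0.15 at 6 hours (95% interval -0.09 to 0.39) and by 0.09 at 24 hours (-0.17 to 0.34), neither of which was called, while 5FU differed from Dox by -1.48 and -2.78 (FDR 2e-17 and 6.7e-30).

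Umps, whose orotate phosphoribosyltransferase activity can convert 5FU directly to its nucleotide, was lower in 5FU at 6 hours. There it ran from 42.2 to 51.9 CPM (median 46.2) in 5FU and from 55.8 to 65.8 (median 62.8) in DMSO1, without overlap (log2 -0.42, SE 0.071, FDR 1.1e-06). By 24 hours it ran from 31.6 to 37.2 (median 35.4) in 5FU and from 32.7 to 43.5 (median 38.2) in DMSO1, and the difference was not called (log2 -0.13, 95% interval -0.28 to 0.02). Ace gave 42.7 to 50 (median 47.4) at 24 hours, above the 32.2 to 38.8 (median 37.9) of DMSO2 (log2 0.35, FDR 1.5e-05). Dox gave no call at either time point, with 54.5 to 66.6 (median 59.8) at 6 hours beside 46.3 to 61.1 (median 54.0) in DMSO2, and 24.5 to 42.6 (median 32.6) at 24 hours (DESeq2 called the difference at 6 hours, log2 0.18, FDR 0.0098). At 6 hours the 5FU effect lay below those of Dox (difference -0.57, FDR 9.8e-07) and Ace (-0.54, FDR 9.8e-06).

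Cad, the trifunctional enzyme that opens de novo pyrimidine synthesis, was highest in Dox. It ran from 110 to 137 CPM (median 117) in Dox and from 81.3 to 105 (median 87.6) in DMSO2 at 6 hours, and from 122 to 150 (median 145) and from 55.7 to 69.6 (median 65.8) at 24 hours. The Dox libraries lay above all controls at both time points (log2 0.40 and 1.09, FDR 1.3e-08 and 9.4e-26). Ace overlapped DMSO2 at both time points and was not called, with 90.3 to 107 (median 101) at 6 hours and 63.3 to 70.5 (median 66.8) at 24 hours. In 5FU Cad ran from 85.0 to 96.8 (median 88.0) at 6 hours, within reach of DMSO1 at 87.3 to 109 (median 93.4), and from 67.4 to 84.1 (median 75.5) at 24 hours beside 58.3 to 69.3 (median 62.3) in DMSO1. The ranges overlapped at both time points, and the rise at 24 hours was 1.2-fold (log2 0.27, FDR 0.00026).

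Ctps1, which aminates UTP to CTP, moved in opposite directions under 5FU and Dox. In 5FU it ran from 89.3 to 101 CPM (median 90.5) at 6 hours and from 57.7 to 63.8 (median 62.0) at 24 hours, and in DMSO1 from 101 to 136 (median 120) and from 67.6 to 85.5 (median 77.3). Every 5FU library lay below every control (log2 -0.38 and -0.32, FDR 5.3e-09 and 2.2e-07), though at 6 hours the nearest values both rounded to 101. In Dox it ran from 125 to 141 (median 134) at 6 hours and from 114 to 147 (median 122) at 24 hours, above the 95.4 to 102 (median 99.8) and 77 to 81.9 (median 78.7) of DMSO2. The Dox increases were 0.44 and 0.65 on the log2 scale (FDR 1.9e-12 and 8.9e-20), and 0.63 at 24 hours without Dox library 7, which held the highest value of 147. Ace gave 88.7 to 102 (median 91.8) and 75.8 to 84.8 (median 81.5), overlapping DMSO2 and not called at either time point. The 5FU effect minus the Dox effect was -0.81 at 6 hours and -0.98 at 24 hours (FDR 8.8e-16 and 1.3e-19). The controls differed at 6 hours, with a mean of 120 CPM in DMSO1 and 99.2 in DMSO2, beside 92.6 in 5FU and 134 in Dox.

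Dpyd, the first enzyme of pyrimidine breakdown, was measured from few counts, between 11 and 144 per library, and was the only one of the 9 genes that rose with time in the controls. In DMSO2 it ran from 1.5 to 3.24 CPM (median 2.05) at 6 hours and from 5.47 to 7.54 (median 6.58) at 24 hours, and in DMSO1 from 1.07 to 2.20 (median 1.63) and from 5.43 to 7.54 (median 6.30). The drugs lay below their controls at 24 hours, with 3.39 to 4.63 (median 3.88) in 5FU, 4.16 to 5.44 (median 5.19) in Ace and 1.39 to 2.78 (median 1.88) in Dox. No group overlapped its control, and the differences were called for 5FU (log2 -0.67, SE 0.16, FDR 0.00016) and Dox (log2 -1.68, SE 0.16, FDR 1.8e-15) but not for Ace (log2 -0.37, FDR 0.025; FDR 0.0082 with DESeq2). At 6 hours no drug gave a call, with 1.21 to 2.25 (median 1.65) in 5FU, 2.05 to 3.12 (median 2.61) in Ace and 0.604 to 2.07 (median 1.67) in Dox (log2 -0.47, FDR 0.013).

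The summed level of 8 fibroblast markers moved with Dpyd at 24 hours. It ran from 15100 to 18900 CPM in DMSO2, from 7250 to 9280 in Ace, from 1920 to 4060 in Dox, from 9970 to 19900 in DMSO1 and from 5170 to 5840 in 5FU, and all 8 markers were called lower in each of the 3 drugs. At 6 hours 2 of the 8 were called lower in 5FU, 6 in Ace and 6 in Dox, with 0 higher. Dpyd was not called there, with log2 0.12 in 5FU, 0.27 in Ace and -0.47 in Dox. The 6 endothelial markers in the table ran from 202 to 264 in DMSO2, from 111 to 206 in Ace, from 16.2 to 37.4 in Dox, from 161 to 217 in DMSO1 and from 100 to 122 in 5FU. The 6 macrophage markers ran from 62.0 to 80.9 in DMSO2, from 44.5 to 60.7 in Ace, from 27.2 to 34.9 in Dox, from 61.0 to 79.2 in DMSO1 and from 52.6 to 60.4 in 5FU. Of these 6, 4 were called lower in Ace, and 5 lower and 1 higher in Dox. In 5FU only 1 was called, as lower, and the median log2 fold change was -0.02. The 9 cardiomyocyte markers also ran lower, from 12400 to 17200 in Dox beside 38800 to 51300 in DMSO2, and from 25300 to 27400 in 5FU beside 36600 to 43800 in DMSO1, while Ace, at 38000 to 55800, overlapped DMSO2. The 4 smooth muscle markers ran from 307 to 1580 (median 1360) in Dox and from 433 to 607 (median 496) in DMSO2, with overlap. Of these 4, 3 were called higher in Dox and 0 lower, with a median log2 fold change of 2.22. In 5FU 2 were called higher and 2 lower, and in Ace 0 were higher and 2 lower. In bulk RNA fewer cells of a type and less RNA per cell cannot be told apart, and the part of these shifts in the values of the 9 genes was not tested.

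In the controls, 24 hours against 6 hours lowered 7 of the 9 genes and raised Dpyd, against 64.6% of all genes called (31.9% lower, 32.7% higher), and the ranges of 7 did not overlap, against 21.6% of all genes (8 without DMSO1 library 1, against 25.5%). The log2 fold changes of the 7 ran from -0.36 for Dut to -1.51 for Rrm2, Dpyd rose 3.41-fold, and Tyms was not called (log2 -0.11, FDR 0.063) unless DMSO1 library 1 was left out (log2 -0.20, FDR 9.2e-06). The 20 genes of the S phase and proliferation list were all lower at 24 hours in the controls, with a median log2 fold change of -1.15 beside 0.01 for all genes. In the same comparison all 8 fibroblast markers and 5 of 6 macrophage markers rose, 4 of 6 endothelial markers rose and 2 fell, and 3 of 4 smooth muscle markers fell and 1 rose, the rise only with DMSO1 library 1. The summed fibroblast level in DMSO2 ran from 9690 to 14500 CPM at 6 hours, below the 24-hour range, and the part of these shifts in the changes of the 9 genes was not tested. Time in culture and time after treatment are the same hours here and cannot be told apart.

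In the order of the 10 group means, most neighbouring groups overlapped and do not stand as different levels. A step below means that a group and the next in the order lay apart, and groups farther apart in the order can still overlap. For Umps no neighbours lay apart, from 61.7 ± 3.65 CPM (SD, n = 6) in DMSO1 at 6 hours to 33.9 ± 5.63 (n = 7) in Dox at 24 hours. For Upp1 4 steps lay apart, below Dox at 24 hours (83.2 ± 13.3), below Dox at 6 hours (49.9 ± 4.4), between DMSO1 and 5FU at 6 hours, and between Ace at 6 hours and DMSO1 at 24 hours. Across the last of these, DMSO2 at 24 hours, from 14.1, overlapped DMSO1 at 24 hours, up to 15.1. Tyms had a step below the pair of Dox groups and another between DMSO2 at 6 hours and DMSO2 at 24 hours (31.8 ± 1.36), although DMSO1 at 24 hours, from 31.3, overlapped the latter. Cad had a step below the pair of Dox groups and another between 5FU at 6 hours and 5FU at 24 hours, although DMSO2 at 6 hours, from 81.3, overlapped 5FU at 24 hours, up to 84.1. Ctps1 had a step between 5FU at 6 hours and Ace at 24 hours and another above 5FU at 24 hours (61.2 ± 2.64), and Tk1 had a step between Ace and DMSO2 at 24 hours and another between 5FU and Dox at 24 hours (13.5 ± 1.28), where library 1 of DMSO1, at 14.4, lay within the Dox range. Dpyd had 1 step, between 5FU at 24 hours and the lower groups, and Rrm2 had 1, between Ace and DMSO2 at 6 hours. Across the Rrm2 step, Ace at 24 hours, from 18.0, overlapped DMSO2 at 6 hours, up to 21.4. Dox at 24 hours, up to 23.5, overlapped Ace at 6 hours, from 23.0.

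The drug effects changed between 6 and 24 hours for 3 of the 9 genes under 5FU (Cad higher, Tk1 and Dpyd lower), against 39.5% of all genes (20.3% higher, 19.2% lower). Without DMSO1 library 1 it was 4, against 41.3%, with Rrm2 added (0.64, FDR 0.0044; 0.53 and 0.021 with all libraries), and Rrm2 was also called when summed with Rrm2l1 (0.59, FDR 0.0041) and without 5FU library 4 or 6 at 6 hours. Under Ace 3 changed (Rrm2, Tk1 and Dut, all higher), against 11.6% of all genes called and 5.58% higher. Under Dox 8 changed, 4 in each direction, against 64.8% (34.0% higher, 30.8% lower). Under Dox only the Tyms effect was not called as different (log2 0.16, 95% interval -0.04 to 0.37), and the Umps change (-0.28, FDR 0.0067) was not called without Dox library 7 (-0.19, FDR 0.039). Set against each other at 6 hours, the 5FU effect was below the Dox effect for 7 of the 9 genes, against 45.9% of all genes called and 22.0% lower, and below the Ace effect for 2 (Umps and Ctps1), against 30.9% called and 17.1% lower. At 24 hours it was above the Dox effect for 3 (Dpyd, Tk1 and Dut) and below it for 5, against 71.1% (35.4% higher, 35.8% lower), and below the Ace effect for 5 (Tyms, Umps, Tk1, Rrm2 and Ctps1), against 37.3% called and 19.1% lower. These comparisons subtract effects measured against controls of different DMSO content, which themselves differed at 6 hours for Ctps1 and Rrm2. Mean Ctps1 at 6 hours was 92.6 CPM in 5FU and 93.4 in Ace, beside 120 in DMSO1 and 99.2 in DMSO2. Mean Rrm2 at 6 hours was 29.2 in 5FU and 32.5 in Dox, beside 31.5 in DMSO1 and 20.6 in DMSO2.

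The DMSO controls differed from each other at 6 hours in 2 of the 9 genes, Rrm2 (1.53-fold higher in DMSO1, FDR 0.00017) and Ctps1 (1.21-fold higher, FDR 1.8e-05), against 16.5% of all genes called and 9.87% higher, and the ranges did not overlap for Rrm2 alone, against 5.07%. At 24 hours edgeR called none of the 9, against 0.433% of all genes, though 3 had an unadjusted p below 0.05 (as did 16.3% of all genes) and DESeq2 called Rrm2 (log2 0.58, FDR 0.0042); no gene of the 9 had ranges apart, against 1.7%. Without DMSO1 library 1 none of the 9 was called at 24 hours either, against 0.0687% of all genes. In DMSO1 at 6 hours 11 of 20 S phase genes and 3 of 4 smooth muscle markers were higher than in DMSO2, and 7 of 8 fibroblast and 4 of 6 endothelial markers were lower, and the part of these shifts in the Rrm2 and Ctps1 differences was not tested. DMSO content and any other difference between the control sets cannot be told apart.

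**Figure D3:**
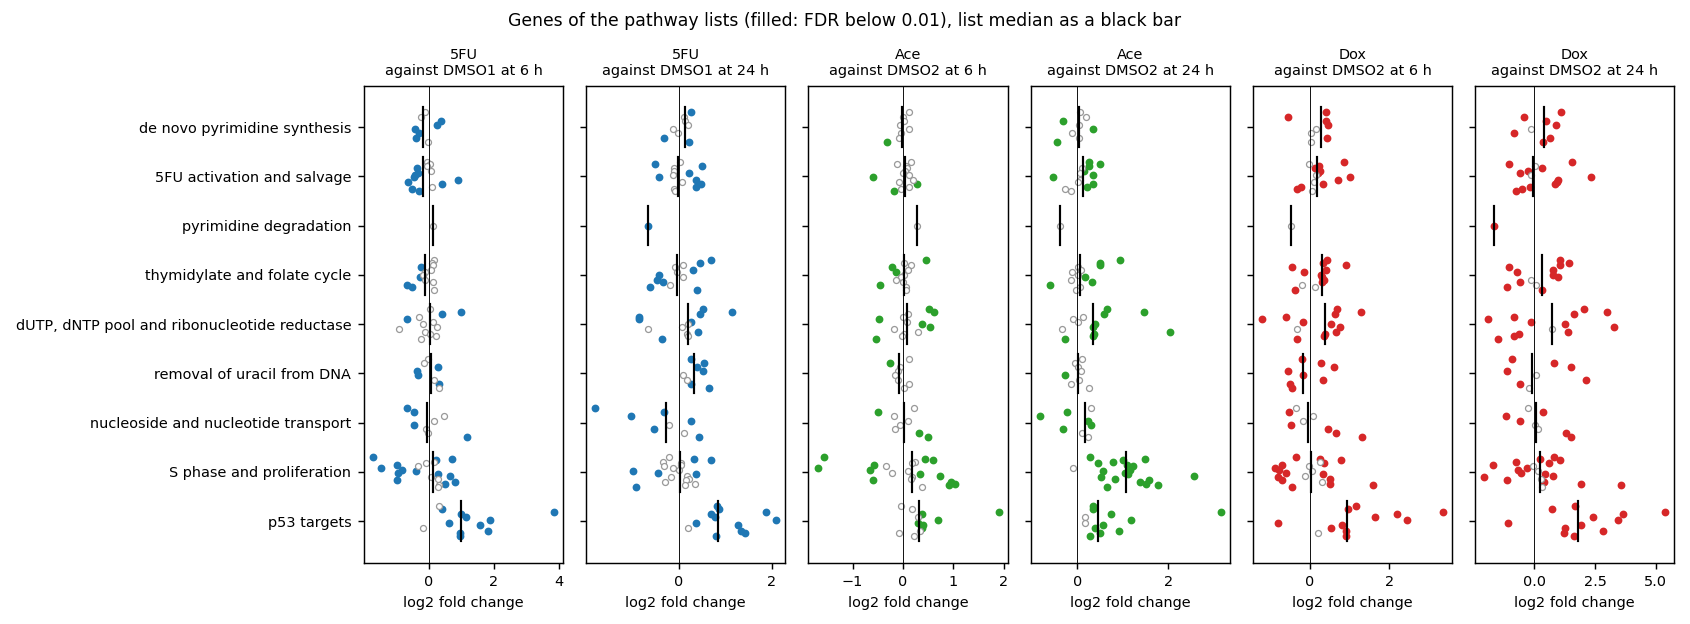
log2 fold change (horizontal axes, which differ in scale between panels) of the genes in 9 pathway lists for each drug against its DMSO control at 6 and 24 hours; filled points have an FDR below 0.01, and black bars are list medians. For Ace at 24 hours 19 of 20 S phase genes lie to the right of 0 as filled points, with a median of 1.08, while for 5FU at 24 hours 3 are called on either side.

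The counts in the lists that follow are read beside the shares of all genes called higher and lower. These were 24.5% lower of 47.9% called for 5FU at 6 hours, 28.0% and 27.8% at 24 hours, 15.2% lower of 31.7% for Ace at 6 hours, 18.2% and 19.1% at 24 hours, 31.5% higher of 64.2% for Dox at 6 hours, and 40.4% and 41.0% at 24 hours. Around the 9 genes, the de novo pyrimidine list had all 8 genes in the table, Umps, Cad and Ctps1 among them. In 5FU the counts were 2 higher and 3 lower at 6 hours, then 2 higher and 1 lower at 24 hours, with Ctps2, the second CTP synthase, higher at 24 hours (log2 0.23) while Ctps1 was lower. In Dox 4 were higher and 1 lower at 6 hours, and 5 were higher and 2 lower at 24 hours, where the nucleoside diphosphate kinase Nme1 rose (0.90) and the UMP/CMP kinase Cmpk1 fell (-0.86). Dhodh, the mitochondrial step of the route, was lower in Dox at 6 hours (-0.54). In Ace 1 was lower at 6 hours, and 1 was higher and 2 lower at 24 hours, with Ctps2 (-0.44) and Nme2 (-0.31) below and Umps above. The list median lay between -0.17 and 0.41 over the 6 comparisons.

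Of 15 genes listed for 5FU activation and salvage, 14 were in the table. In 5FU at 6 hours 2 were higher and 7 lower, the lower ones including the uridine kinase Uck2 (-0.65) and Uprt (-0.52), while the mitochondrial thymidine kinase Tk2 rose (0.90) as the cytosolic Tk1 was not called. Uck2 at 6 hours was higher in DMSO1, the 5FU control, than in DMSO2 (0.385, FDR 3.2e-05). At 24 hours 5 were higher, among them Prps1, which makes the phosphoribosyl donor PRPP (0.49), and Uck1 (0.49), and Upp1 and Tk1 were lower. In Dox 8 were higher and 2 lower at 6 hours, and 6 were called each way at 24 hours, with Prps2 at 0.86 and 1.53. In Ace 1 was higher and 2 lower at 6 hours, and 7 were higher and 1, Upp1, lower at 24 hours. Of 4 genes listed for pyrimidine degradation only Dpyd was in the table.

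The thymidylate and folate list had 13 genes. Mitochondrial Mthfd2 was lower in 5FU at both time points (-0.52 and -0.62) and in Dox at 24 hours (-1.15). At 6 hours it was higher in DMSO1, the 5FU control, than in DMSO2 (0.85, FDR 4.3e-06). In 5FU 4 of the 13 were lower at 6 hours with none higher (9 not called), and 4 were called in each direction at 24 hours (5 without DMSO1 library 1). In Dox 8 were higher and 3 lower at 6 hours, and 7 were higher and 4 lower at 24 hours, and in Ace 1 was higher and 3 lower, then 5 higher and 1 lower.

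The dUTP, dNTP pool and ribonucleotide reductase list had 13 genes, and deoxycytidine kinase (Dck) was higher in all 6 drug comparisons, by 1.0 and 1.14 in 5FU, 0.61 and 1.47 in Ace and 1.30 and 2.99 in Dox on the log2 scale. The dCMP deaminase Dctd, which supplies dUMP to Tyms, was lower in 5FU (-0.65 and -0.85) and in Dox at 6 hours (-1.21). Samhd1, which breaks down deoxynucleotide triphosphates, was 0.54 higher in Ace at 6 hours and 0.77 and 3.30 higher in Dox. In 5FU the counts were 2 higher and 1 lower at 6 hours, then 5 higher and 3 lower (7 and 3 without DMSO1 library 1, where Dck was 1.44 higher). In Ace 4 were higher and 2 lower, then 8 higher and 1 lower, and in Dox 8 higher and 4 lower, then 6 in each direction.

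For the removal of uracil from DNA, 6 of 8 genes were higher in 5FU at 24 hours and none lower, with a median of 0.34 beside -0.01 for all genes, of which 28.0% were called higher. They included the glycosylases Mbd4 (0.65) and Tdg (0.53) and the endonuclease Apex1 (0.55), and at 6 hours 2 of the 8 were higher (1 without 5FU library 1) and 2 lower, with Tdg at -0.37. In Dox uracil-DNA glycosylase (Ung) was higher (2.11) and Tdg lower (-1.12) at 24 hours, within 3 higher and 3 lower, after 3 higher and 5 lower at 6 hours. Ace gave 1 lower gene at each time point (Apex1 at 6 hours and Lig3 at 24 hours) and none higher. Of 10 nucleoside and nucleotide transport genes 8 were in the table. The concentrative transporters Slc28a2 (-1.80) and Slc28a1 (-1.04) were lower in 5FU at 24 hours, within 2 higher and 4 lower, and Slc28a1 was lower at 24 hours in Ace (-0.82) and Dox (-1.19) as well. The mitochondrial pyrimidine carrier Slc25a33 was higher in 5FU at both time points (1.17 and 0.43), in Ace at 6 hours (0.49) and in Dox at both time points (1.32 and 1.5), and at 6 hours it was lower in DMSO1 than in DMSO2 (-0.42, FDR 0.0045).

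**Figure D4:**
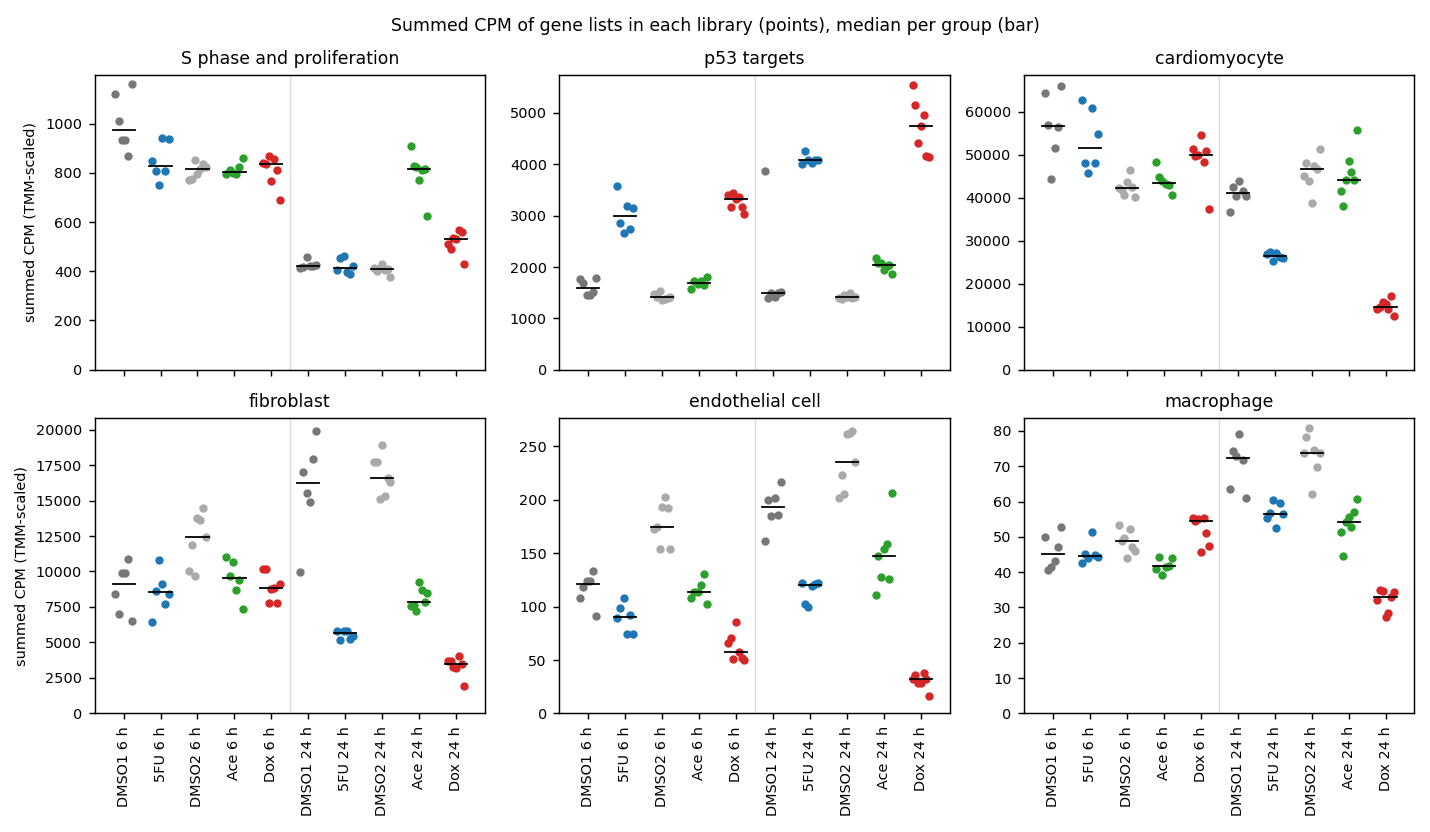
Summed CPM (linear axes from 0) of the S phase and proliferation list (20 genes), the p53 target list (12) and 4 marker lists in each library; points are libraries and bars group medians. S phase genes stay near their 6-hour level in Ace at 24 hours (623 to 909 CPM) but not in DMSO2 (377 to 428), and 1 DMSO1 library at 24 hours has a p53 target sum of 3870.

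The S phase list was summed as a reference for Tyms, Tk1, Dut and Rrm2, which it does not contain. It ran from 377 to 428 CPM in DMSO2 at 24 hours, from 623 to 909 in Ace and from 431 to 568 in Dox, so that both drugs lay above the control, as Tyms and Rrm2 did. Tk1 and Dut lay above the control in Ace and below it in Dox. In 5FU the sum at 24 hours, from 387 to 463, overlapped DMSO1 at 412 to 458, while Tk1 was lower. Under Dox 9 of the 20 genes were higher and 7 lower at 24 hours, with the transcription factor E2f1 3.59 higher on the log2 scale and the replication helicase subunit Mcm2 at -2.07. Under Ace 19 of 20 were higher, E2f8 by 2.56 and E2f1 by 1.76, and under 5FU Mcm7 (-0.97) and E2f2 (-0.91) were lower and Pcna (0.70) was higher. The 6-hour counts were 6 higher and 7 lower in 5FU, 7 and 5 in Ace, and 7 and 8 in Dox.

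The 12 p53 target genes were summed in the same way. At 24 hours the sum ran from 4010 to 4260 CPM in 5FU, from 1870 to 2180 in Ace, from 4150 to 5540 in Dox, from 1380 to 1500 in DMSO2 and from 1400 to 3870 in DMSO1, where the highest value was that of library 1 and the others reached 1510. Of the 12, 10 were higher at 6 hours and 11 at 24 hours in 5FU, 6 and 10 in Ace and 10 and 11 in Dox, with 1 lower in Dox at each time point. The cell cycle inhibitor Cdkn1a was 1.87 and 2.10 higher on the log2 scale in 5FU, 0.69 and 1.17 in Ace and 2.46 and 3.44 in Dox. Without DMSO1 library 1, 11 of the 12 were again higher in 5FU at 24 hours, with a median of 1.17 in place of 0.85 and Cdkn1a at 3.04.

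Over the means of the 10 groups, the genes most like each of the 9 in log2 CPM, among 10480 other named genes whose mean count was 100 or more, are given with Pearson's r as a description, since the groups share cell preparation and time points and are only 10. Tyms was most like Ubr7 (0.97), Taf9 and Atr. Upp1 was most like Top1mt (0.99), Id2 and Rcc2, Cad was most like Timm10b (0.99), Gemin6 and Fam20c, and Ctps1 was most like Larp1 (0.98), Hgh1 and Actn1. Tk1 was nearest to the replication genes Rfc3 (0.98), Mcm6 and Gins1, Dut to Rpp30 (0.98), Mrpl42 and Rnf7, and Umps to Exosc2 (0.97), Slf1 and Mdm1. Rrm2 was nearest to Rrm2l1 (r of 0.998), with which it may share reads, then to Spc24 and Cenpn, and Dpyd to Hyou1 (0.98), Ccpg1 and Arhgap26.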

How the data were processed

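PolyA RNA of 65 cultures was analysed as the estimated counts that the authors deposited. They had been made with kallisto 0.46.0, which shares reads that fit several transcripts, were summed to genes with Entrez identifiers, were not normalized, and had lost genes with low counts before deposition. Columns name only the group, and library numbers here are labels. Symbols came from RefSeq (GRCr8, for names and promoter windows only). A minimum count of 10 in 1 library removed none. After TMM scaling, 1 model of 10 groups was fitted by quasi-likelihood in edgeR 4.0.16 (R 4.3.3), and FDR was adjusted over 14554 genes with 0.01 as threshold. log2 CPM used a prior count of 2. In simulated counts for Dox against DMSO2 at 24 hours over 13896 genes, the fit recovered 88% of genes changed by 0.5 and 100% of those changed by 1 on the log2 scale. Only 100 well-measured genes were changed by each amount, all genes had the same spread, and only the 2 compared groups were fitted. The simulation therefore does not measure recovery in the real comparison, where 81.4% of genes were called.

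The genes, the pathway and marker lists and the tests were chosen with earlier results of these data known. Genes named from each list are up to 3 called genes with the largest change per drug comparison, and, for each of the 9 genes, the 3 most alike over group means. Alternatives were DESeq2 1.42.0 (Wald test and size factors), library size only, filterByExpr, no filter, an FDR below 0.1, fits of the compared groups only, leaving out each library, and, added after seeing the data, Rrm2 and Rrm2l1 summed. The authors' own table of differential expression was not used. Some genes of the thymidylate and folate list are not reported here by name.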

Additional observations from a re-analysis of the deposited data

Results flagged for a closer look

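Of 90 sets of libraries (9 genes in 10 groups) tested for a library far from the others of its group (Dixon's test), 6 held one, where chance alone gives about 1 in 20. In DMSO1 at 24 hours library 1 was far from the others for Tyms (57.8 CPM, nearest other 35.3) and for Tk1 (14.4, nearest 24.6). The other 4 were Umps at 53.3 in library 1 of Ace at 6 hours, Dut at 47.4 in library 7 of Ace at 24 hours, Rrm2 at 17.7 in library 1 of DMSO2 at 6 hours, and Ctps1 at 147 in library 7 of Dox at 24 hours.

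Of 27 tests of whether a drug effect differed between 24 and 6 hours (edgeR, FDR below 0.01), 14 passed. Of all genes, 39.5% passed for 5FU, 11.6% for Ace and 64.8% for Dox. On the log2 scale, as the 24-hour effect minus the 6-hour effect, the 5FU differences were 0.37 for Cad, -0.57 for Tk1 and -0.79 for Dpyd. Those of Ace were 0.63 for Tk1, 1.75 for Rrm2 and 0.36 for Dut. Those of Dox were 1.33 for Upp1, 0.71 for Rrm2, 0.68 for Cad, 0.22 for Ctps1, -0.28 for Umps, -1.01 for Tk1, -1.21 for Dpyd and -1.0 for Dut.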

How the results depend on the processing

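No paired analysis was possible because the columns of the count table carry group names without replicate numbers. Without a filter, with filterByExpr, with DESeq2's size factors and with Rrm2 and Rrm2l1 summed (chosen after seeing the data), the number of the 9 genes called stayed within 1.5 times in all 16 comparisons. With an FDR below 0.1 the number became 4 for Ace at 6 hours, 5 and 3 for DMSO1 against DMSO2 at 6 and 24 hours, 5 and 6 for the change of the 5FU and the Ace effect over time, and 4 for 5FU minus Ace at 6 hours. The shares of all genes called at this FDR were 48.9% for Ace at 6 hours, and 32.6% and 5.25% for DMSO1 against DMSO2. They were 56.4% and 26.6% for the 5FU and the Ace effect over time, and 48.2% for 5FU minus Ace. The change of the Ace effect over time gave 5 with library size only (12.5% of all genes) and 5 with the compared groups only (19.0%). With the compared groups only, Ace at 6 hours gave 3 (36.8% of all genes). The DESeq2 Wald test gave 1 (Rrm2) for DMSO1 against DMSO2 at 24 hours (1.22% of all genes). Leaving out single libraries gave 0 to 1 there (Rrm2, without DMSO1 library 4, FDR 0.006). The cause was not tested.

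Library size only moved the median log2 fold change of all genes to -0.15 for Dox at 6 hours and to 0.27 for the change of the Dox effect over time, and the share of calls that were higher for Dox at 6 hours from 49.1% to 33.8%. No called direction of the 9 genes turned under it, but 14 uncalled differences did. They were Tk1 (-0.018) and Dut (-0.04) for 5FU at 6 hours, Dut (-0.014) for Ace at 6 hours, Umps (-0.004) for Dox at 6 hours, and Tyms (-0.031), Tk1 (-0.067) and Cad (-0.022) for DMSO1 against DMSO2 at 6 hours. At 24 hours Dpyd (0.024), Cad (0.004) and Ctps1 (0.002) turned for DMSO1 against DMSO2, as did Tyms (0.037) for 5FU over time, Cad (0.022) for Ace over time, Umps (-0.057) for 5FU minus Dox at 24 hours and Dut (-0.026) for 5FU minus Ace at 6 hours. Umps for 5FU minus Dox at 24 hours also turned with DESeq2's size factors (-0.037), filterByExpr (-0.01) and the DESeq2 Wald test (-0.037).

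Leaving out single libraries turned only uncalled differences, all near 0. The ranges were -0.077 to 0.053 for Umps in 5FU minus Dox at 24 hours, -0.033 to 0.059 for Upp1 and -0.081 to 0.14 for Tyms in 5FU over time, -0.006 to 0.065 for Dut in 5FU at 6 hours, -0.026 to 0.047 for Dut in 5FU minus Ace at 6 hours, and -0.071 to 0.038 for Tk1 in Dox at 6 hours. In DMSO1 against DMSO2 they were -0.002 to 0.053 for Tk1 and -0.088 to 0.007 for Upp1 at 6 hours, and -0.078 to 0.023 for Dpyd at 24 hours. The Rrm2 call for 5FU at 24 hours was lost without 5FU library 1, 2, 3 or 6 or DMSO1 library 2, 3, 4, 5 or 6 (0.33 to 0.44, FDR up to 0.052). The change of the Umps effect over time in Dox was not called without Dox library 1, 2, 4 or 7 or DMSO2 library 4, 5 or 6 at 24 hours, or without Dox library 1 or 3 or DMSO2 library 4, 5 or 6 at 6 hours (FDR up to 0.039), with library size only (-0.076, FDR 0.52), filterByExpr (FDR 0.012) or the compared groups only (FDR 0.023). That of Dpyd in 5FU was not called without 5FU library 3 or DMSO1 library 4 at 24 hours, without 5FU library 3 or 5 or DMSO1 library 4 or 6 at 6 hours (FDR up to 0.018), or with library size only (FDR 0.011). Dpyd was called lower in Dox at 6 hours with library size only (-0.62, FDR 0.0012) and without Dox library 2, 6 or 7 or DMSO2 library 4 or 7.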
